A study of Mus musculus with 4 samples.

Results

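Vascular smooth muscle cells of the mouse retina were described here as the barcodes with at least 6 unique molecular identifiers (UMIs, each standing for 1 captured transcript) of Acta2, Tagln and Myh11 together, spread over at least 2 of these 3 genes. The rule found 403 members among the 19716 barcodes that held at least 500 UMIs and 300 genes and at most 20% mitochondrial UMIs. Only 47 of the members had low endothelial RNA, meaning at most 2 UMIs of Cldn5, Cdh5, Pecam1 and Flt1 together, and the other 356 carried more of it. The study made 4 libraries from mouse retina, 2 labelled Diabetic and 2 labelled Control (Ctrl). All 4 came from live cells enriched with beads for CD31 (Pecam1, an endothelial surface protein) and were prepared with the 10x Chromium 3′ kit. The way diabetes was brought about, its duration, and the strain, age and number of the mice were not given in the sources used here. The labels do not say that replicates came from separate animals, so the p-values measure the spread between these libraries only, which may be technical. The enrichment was for endothelial cells, so that shares of barcodes are not shares of retinal cells.

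Smooth muscle cells wrap arteries, arterioles and larger veins and set vessel diameter by the calcium-driven sliding of actin and smooth muscle myosin. Nitric oxide and the endothelium relax them through cyclic nucleotides and myosin phosphatase. In the retina they cover the arterioles, while pericytes, a related mural cell, cover the capillaries, and both lie against endothelium. In diabetic retinopathy the loss of pericytes is the best known mural change.

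The libraries held 7991 and 3934 barcodes in Diabetic 1 and 2, against 6394 and 3091 in Control 1 and 2. Between 29792902 and 58792636 UMIs were counted per library. Members numbered 170 and 90 in Diabetic 1 and 2 and 103 and 40 in Control 1 and 2, and their summed UMIs were 1574398 and 1278075 against 858782 and 484265. Their median depth was 8258 and 13231 UMIs in the Diabetic libraries, against 7014 and 9204 UMIs in the Control libraries. Any pair of libraries shared at most 9 passing barcodes, and no member was shared.

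The members ranged from 6 to 233 muscle UMIs with a median of 20. All 3 muscle genes were present in 309 members, Acta2 and Myh11 alone in 45, Acta2 and Tagln alone in 43, and Tagln and Myh11 alone in 6. The 26 barcodes just inside the threshold, with 6 muscle UMIs, had medians of 46.5 endothelial UMIs and 6321 UMIs in all, and the 33 just outside it, with 5, had medians of 27 and 8204. The threshold therefore cut through a continuous range, and the barcodes beside it held more endothelial than muscle RNA. A further 20 barcodes had at least 6 UMIs of 1 muscle gene only and were left out.

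Most members were mixed barcodes. The 356 members with more endothelial RNA had a median of 62.5 endothelial UMIs, 19 muscle UMIs and 9566 UMIs in all. The 47 with low endothelial RNA had a median of 28 muscle UMIs among 3256 UMIs in all. The order of the muscle UMIs was not the same in every library: in Diabetic 2 the median was 21 in members with low endothelial RNA and 26 in the others. Scrublet, a caller of doublets, marked 20 and 3 members in Diabetic 1 and 2 and 0 in each Control library, and no barcode was removed for it in the main results. These counts do not compare the groups, because the expected rate replaced its own threshold in the Diabetic libraries only, marking 6.31% and 2.81% of their barcodes, against 0.613% and 0.943% in Control libraries.

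**Figure D1:**
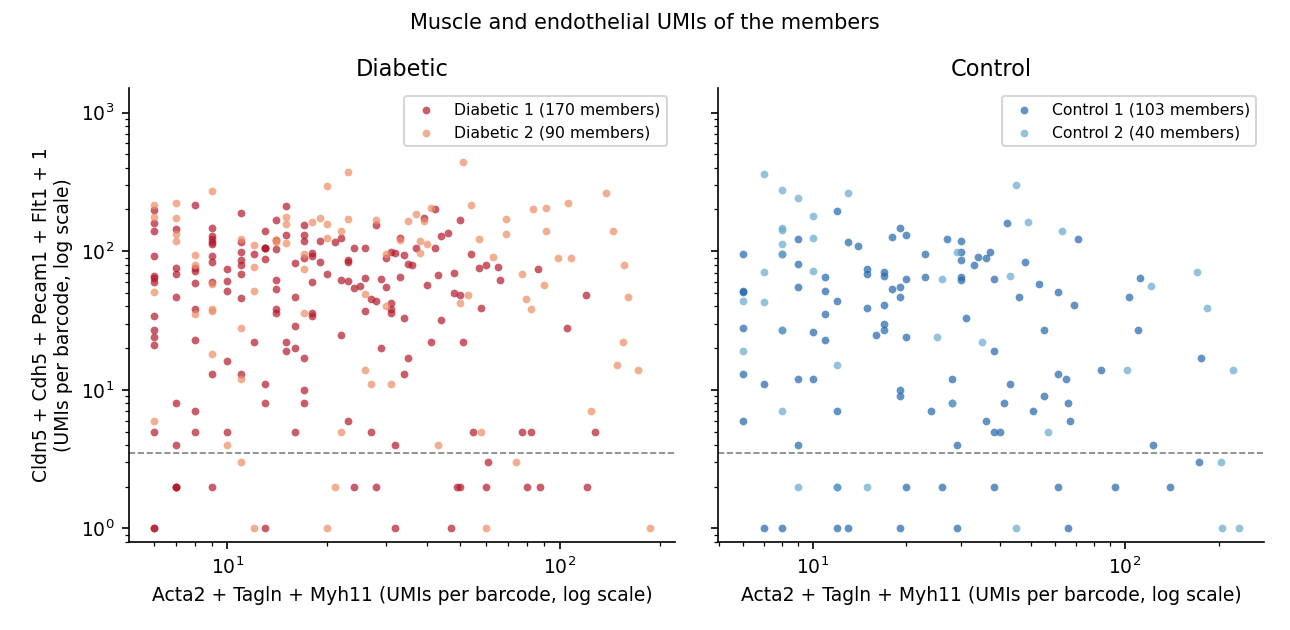
Each point is 1 member, with its Acta2, Tagln and Myh11 UMIs on the horizontal log axis and its Cldn5, Cdh5, Pecam1 and Flt1 UMIs plus 1 on the vertical log axis, Diabetic libraries left and Control libraries right. The dashed line separates the 47 members with low endothelial RNA, below it, from the 356 with more.

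Acta2 lies at chr19:34241090-34255590, Tagln at chr9:45929619-45936058 and Myh11 at chr16:14194535-14291372, all on the minus strand (GRCm38). The label was checked in the members with low endothelial RNA, against 309 pericyte barcodes with equally low endothelial RNA. Those had at least 6 UMIs of Rgs5, Kcnj8, Abcc9 and Higd1b and at most 2 of the muscle genes. Because both classes were chosen on these genes, the levels of the muscle and pericyte genes are a description with no test. Levels are given as CPM, a gene's UMIs per 1000000 summed UMIs of a class in a library. Acta2, smooth muscle actin, had 5075 and 7599 CPM in Diabetic 1 and 2 members with low endothelial RNA and 5434 and 8352 CPM in those of Control 1 and 2, against 0 to 20.8 CPM in the pericyte barcodes of the 4 libraries. Tagln, an actin-binding protein of smooth muscle, had 2838 and 4011 against 4248 and 6237 CPM in the same members, and Myh11, the smooth muscle myosin heavy chain, 2792 and 3240 against 2124 and 4765 CPM. The Diabetic and Control members overlapped for Acta2 and Myh11 and stood apart for Tagln.

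Genes of the contractile apparatus that the rule did not use were also high. Lmod1, which nucleates actin filaments, had 216 and 463 CPM in Diabetic members with low endothelial RNA, against 494 and 589 CPM in Control ones, and at most 18.0 CPM in any pericyte sum. Tpm2, a tropomyosin, had 1897 and 2353 against 1795 and 3373 CPM, with 68.9 to 338 CPM in pericytes. Myl9, the regulatory light chain of myosin, had 2838 and 4127 against 2437 and 3641 CPM, with 443 to 1646 CPM in pericytes. All 3 genes were thus higher in the members than in the pericytes of every library, by least for Myl9. Mylk, the kinase of that light chain, had 1203 and 1504 CPM in Diabetic and 1597 and 2088 CPM in Control members, and pericytes held at most 399.96 CPM. Des, an intermediate filament protein, overlapped most, with 193 to 355 CPM in members and 68.9 to 199.98 CPM in pericytes. Cnn1, calponin, a marker of smooth muscle in large arteries, had only 3 and 0 UMIs in all Diabetic members and 3 and 6 UMIs in all Control members.

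Calcium handling and the regulators of the muscle programme followed. Pln, which inhibits the calcium pump of the sarcoplasmic reticulum, had 15 and 1 UMIs in the Diabetic members with low endothelial RNA and 8 and 13 UMIs in the Control ones, and 0 in the 4 pericyte sums. Myocd, the coactivator that drives smooth muscle genes, had 6 and 2 against 4 and 3 UMIs, and Eln, elastin, 3 and 2 against 3 and 3, each with 0 in pericytes. These low counts lay above 0 in every library. Kcnmb1, a subunit of the large-conductance potassium channel, had 92.6 and 154 against 148 and 134 CPM, with 14.9 to 73.9 CPM in pericytes. Cacna1c, the L-type calcium channel, had 61.7 and 77.1 against 82.3 and 134 CPM, with 32.8 to 73.9 CPM in pericytes, on at most 5 UMIs per member sum.

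Genes that mural cells share did not separate the classes. Rgs5, a regulator of G-protein signalling, had 7158 and 8061 CPM in Diabetic members with low endothelial RNA and 9534 and 5782 CPM in Control ones, inside the pericyte range of 5105 to 14875 CPM. Notch3, the receptor that maintains mural cells, had 833 and 733 against 642 and 642 CPM, with 309 to 738 CPM in pericytes. Pdgfrb, the receptor for the endothelial growth factor that recruits mural cells, had 540 and 887 against 461 and 803 CPM, with 755 to 2400 CPM in pericytes. Heyl, a Notch target, Ednra, the endothelin receptor, and Gucy1a1, a subunit of the nitric oxide receptor, were detected in both classes of every library. The pericyte channel genes were lower in the members. Kcnj8, the pore of an ATP-sensitive potassium channel, had 170 and 77.1 CPM in Diabetic and 16.5 and 0 CPM in Control members, against 446 to 2031 CPM in pericytes. Abcc9, its regulatory subunit, had 231 and 116 against 32.9 and 80.3 CPM, with 1192 to 2400 CPM in pericytes. Vtn, vitronectin, had 1681 and 1427 against 576 and 1124 CPM, with 4126 to 13445 CPM in pericytes.

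**Figure D2:**
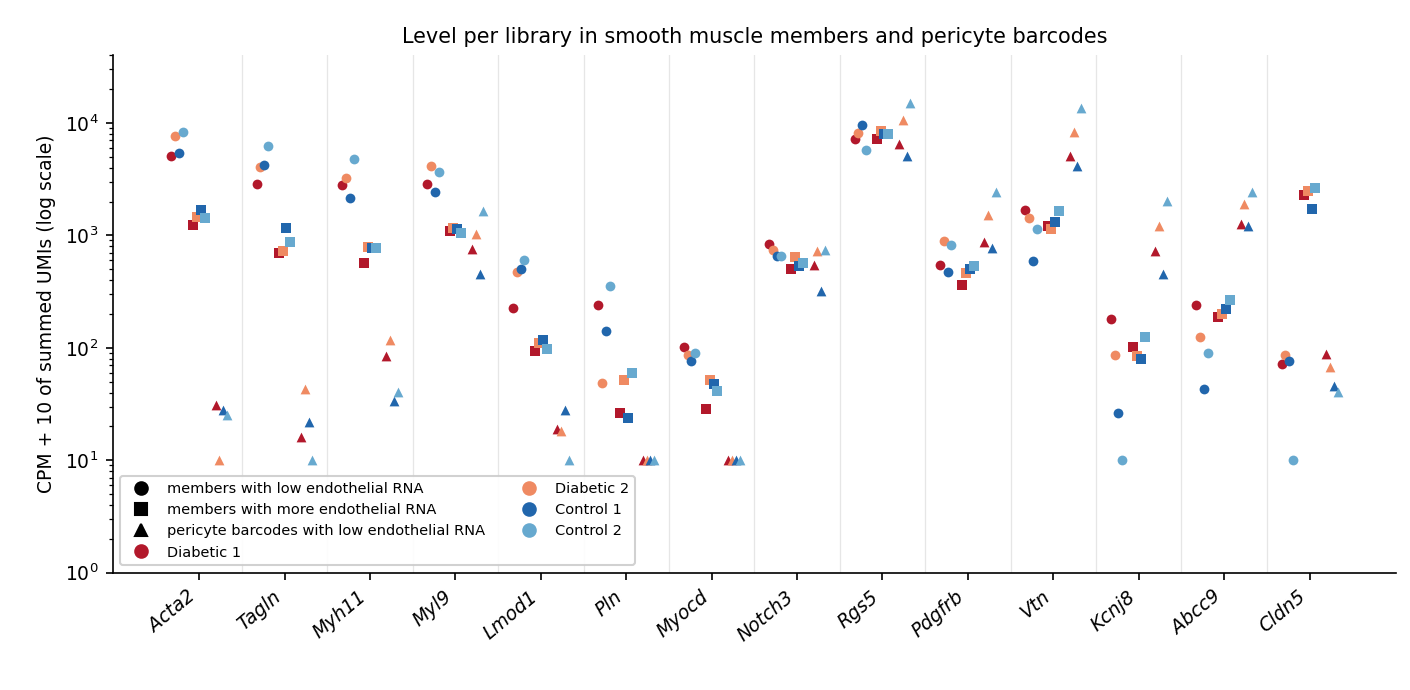
CPM plus 10 of summed UMIs on a log axis for 14 genes in members with low endothelial RNA (circles), members with more endothelial RNA (squares) and pericyte barcodes with low endothelial RNA (triangles), each point 1 library. Acta2, Tagln, Myh11 and Lmod1 are well above the pericytes in both kinds of members. Myl9 is also present in pericytes, and Pln and Myocd are low in members. Rgs5 and Notch3 are alike, and Kcnj8, Abcc9 and Vtn are lower in members.

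Pericyte channel genes were fewer in the members richest in muscle RNA. Among members with more endothelial RNA, the median of Kcnj8 and Abcc9 UMIs together was 3 in the 78 members with 6 to 9 muscle UMIs, 2 in those with 10 to 19, 2 in the 110 with 20 to 49 and 0 in the 67 with 50 or more. Among members with low endothelial RNA the median was 0 in each of these ranges. The sum that also holds Rgs5 and Higd1b ran the other way in the mixed members, with medians of 64, 74, 87.5 and 113 UMIs over the 4 ranges.

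Beyond the listed genes, a description ranked genes by their level in the members with low endothelial RNA over the matching pericytes, among those with at least 3 UMIs in every library's members. The rule genes apart, Palld and Csrp1 had the highest ratios. Palld, palladin, which cross-links actin, was 104 times as high in the members as in the pericytes, from 92 against 4 UMIs. Csrp1, a protein that partners with the muscle transcription factors, was 68.9 times as high, from 76 against 5 UMIs. Ratios on so few pericyte UMIs are rough. Sncg, gamma-synuclein, was 52.4 times as high. Fbxl22, an F-box protein of muscle, had 0 UMIs in the pericytes and was at least 37.8-fold higher in the members, with the floor set at 3 counts over the 4 libraries. Rbm24, an RNA-binding protein that controls splicing in muscle, was 27.8 times as high. Ntn4, a netrin of basement membranes, was 27.8 times as high and Npy1r, the receptor for neuropeptide Y, 17.01 times. Npy1r had 9 and 6 UMIs in the Diabetic members and 12 and 3 in the Control members, against 0 to 7 in the pericyte sums.

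RNA of other cells was present in the members and was followed with 10 marker lists. The 13 genes of the rod list held 1.46% and 0.532% of the UMIs of all members in Diabetic 1 and 2, against 1.67% and 0.389% in Control 1 and 2, so that the first replicate of each group was the rod-rich one. The 14 endothelial genes held 1.96% and 1.96% of UMIs in Diabetic members, against 1.39% and 1.98% in Control members. The neutrophil list had 1491 and 17 UMIs against 2 and 0, and a single member of Diabetic 1 held 569 of the 595 UMIs of S100a9 there. The Müller glia list had 6652 CPM in Control 1 members with low endothelial RNA, against 802 to 1157 CPM in the other 3 libraries. There 1 member held 298 of 301 Apoe UMIs, and 1 member held all 32 UMIs of C3. Cone, bipolar, erythrocyte, microglia and fibroblast lists each held at most 0.0480% of the UMIs of all members in any library, and the astrocyte list 0.0631% to 0.0992%. In the members with low endothelial RNA, 5 of the 10 fibroblast genes and 5 of the 11 microglia genes had 0 UMIs.

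The endothelial RNA of the mixed members held more arterial and less capillary transcripts than that of the other classes. The segment lists used here were added after the data had been seen, and each is given per 1000 UMIs of Cldn5, Cdh5, Pecam1 and Flt1, so that the amount of endothelial RNA does not set the value. The 11 arterial genes had 247 and 259 in the members of Diabetic 1 and 2, against 364 and 275 in those of Control 1 and 2. They had 65.0 and 63.9 against 64.1 and 70.5 in pericyte barcodes that also carried endothelial RNA, and 71.5 and 70.9 against 91.9 and 86.2 in 1862 endothelial barcodes with little mural RNA. The members were thus the highest class in each library. Of the 11 genes, 9 were above both other classes in every library, among them Bmx, Sema3g, Gja4, Dll4 and Vegfc, which are all known from arterial endothelium. Gja4, a connexin, was also present in members with low endothelial RNA, with 13 and 11 UMIs in Diabetic and 23 and 15 UMIs in Control libraries, whereas Vegfc had 0 there, Sema3g 1 and Dll4 1 UMI in all. Gkn3, a secreted protein that marks arterial endothelium in mouse brain, had 38.2 and 27.3 per 1000 in Diabetic members and 107 and 75.6 per 1000 in Control members. In endothelial barcodes it had 3.43 and 4.595 against 8.87 and 9.54 per 1000. In members with low endothelial RNA it had 0 and 1 UMIs in Diabetic and 2 and 1 UMIs in Control libraries.

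The 8 capillary genes were lowest in the members, with 436 and 422 per 1000 in Diabetic and 482 and 567 per 1000 in Control libraries. In pericyte barcodes they had 675 and 702 against 777 and 782, and in endothelial barcodes 680.5 and 742 against 771 and 834. Slc16a1, a lactate transporter, Slc7a5, an amino acid transporter of the barrier, Tfrc, the transferrin receptor, Rgcc and Slc7a1 were below both other classes in every library. The 9 venous genes had 161 and 184 in Diabetic and 159 and 178 in Control members, so these groups overlapped, whereas the endothelial barcodes had 156 and 195 in Diabetic against 64.1 and 81.6 in Control libraries. Vcam1, an adhesion molecule, and Nr2f2 were above both other classes in every library. Nr2f2 had 33.7 and 40.2 per 1000 in Diabetic members and 54.6 and 44.9 in Control members. In pericyte barcodes it had 25.1 and 30.6 against 34.2 and 26.4 per 1000. Nr2f2 is also in the list of smooth muscle transcription factors used below, and members with low endothelial RNA held at least 10 UMIs of it in all. Its values per 1000 are therefore not those of endothelial RNA alone. Ackr1, the chemokine receptor of venules, had at most 1.04 per 1000 in members.

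**Figure D3:**
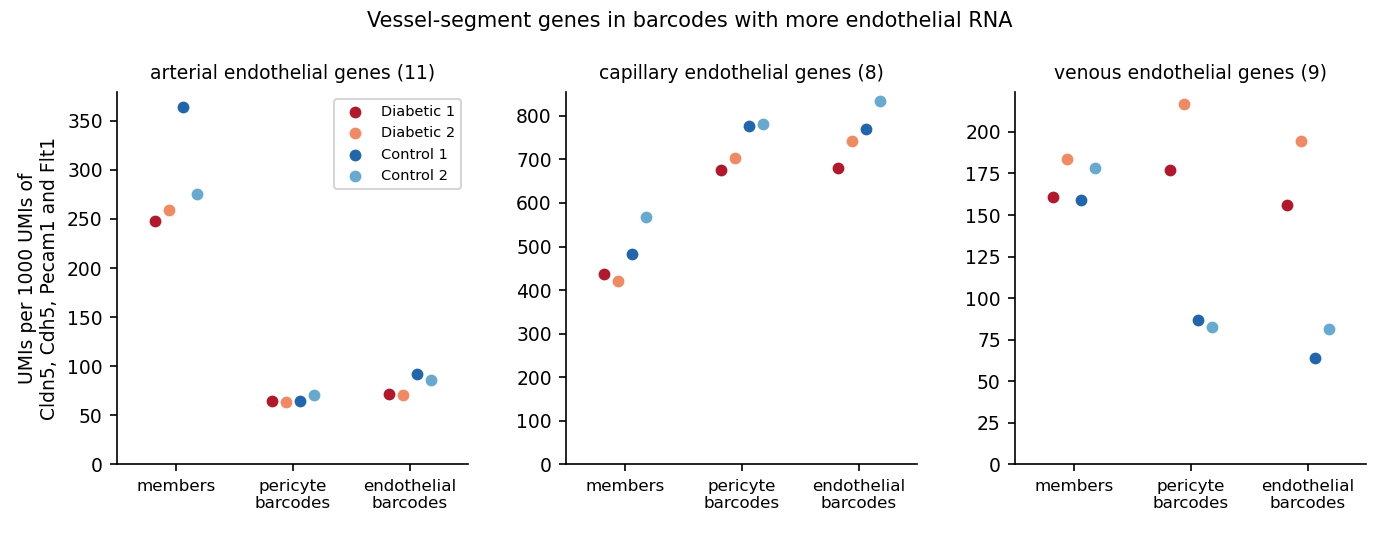
UMIs of 11 arterial, 8 capillary and 9 venous genes per 1000 UMIs of Cldn5, Cdh5, Pecam1 and Flt1, in members and pericyte barcodes that carry more than 2 endothelial UMIs and in endothelial barcodes, each point 1 library. Arterial genes are highest and capillary genes lowest in the members of all 4 libraries.

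Members made up 2.15% and 2.56% of the passing barcodes in Diabetic 1 and 2, against 1.76% and 1.64% in Control 1 and 2. Their exact 95% binomial intervals, which cover counting error only, ran from 1.85% to 2.499% and from 2.06% to 3.13% in the Diabetic libraries, against 1.43% to 2.12% and 1.17% to 2.23% in the Control libraries. The 2 groups did not overlap and differed by 0.658 percentage points (exact permutation test over 4 libraries, two-sided, p = 0.3333, the smallest this design allows). Members with low endothelial RNA stood the other way, at 0.228% and 0.199% in Diabetic libraries, against 0.256% and 0.287% in Control libraries (exact permutation test, p = 0.3333). Their share of all members was 10.6% and 7.78% in Diabetic, against 14.6% and 17.5% in Control libraries. With every barcode thinned to 2000 UMIs the shares were 1.44% and 1.38% in Diabetic and 1.57% and 1.14% in Control libraries, which overlapped (exact permutation test, p = 1). Thinning left out 2744 and 905 barcodes in Diabetic and 1931 and 767 in Control libraries. The enrichment for CD31 and the depth of the libraries can set these shares, and fewer members cannot be told apart from less muscle RNA per member. Per 100 pericyte barcodes there were 14.6 and 16.6 members in Diabetic, against 13.6 and 14.04 in Control libraries. Among barcodes with low endothelial RNA this ratio stood the other way, at 14.3 and 12.3 in Diabetic against 16.5 and 20 in Control libraries.

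Expression in Diabetic members was then set against that in Control members, with UMIs summed over the members of each library. The smallest p-values belonged to Hsph1 and Gkn3, which were lower in Diabetic members, and among genes higher in Diabetic the early-response genes Fos and Dusp1 stood near the top. No gene passed the adjusted threshold among 10113 tested (edgeR quasi-likelihood test, Benjamini-Hochberg adjustment, called at an adjusted p under 0.05: 0 higher, 0 lower). At an unadjusted p under 0.05 there were 419 genes, 4.14% of those tested. DESeq2 called 2 genes lower, Hsph1 and Gkn3, with adjusted p of 0.0140 and 0.0266. Without the 17 members, 10 of Diabetic 1 and 7 of Control 1, in which rod, cone, bipolar and Müller glia lists held over 5% of UMIs, edgeR called 11 genes higher and 15 lower. Those 26 held 14 of the 16 genes named below for the smallest p.

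Hsph1, a chaperone of the Hsp110 family at chr5:149614287-149636376 on the minus strand, had 12.1 and 15.6 CPM in Diabetic members, against 71.0 and 74.3 CPM in Control members, from 19 and 20 against 61 and 36 UMIs. Both Diabetic libraries lay below both Control libraries by about the same amount (log2 fold change -2.44 ± 0.27 SE, edgeR adjusted p = 0.41). Gkn3 had 257 and 196 CPM in Diabetic and 554 and 516 CPM in Control members (log2 fold change -1.29 ± 0.18, edgeR adjusted p = 0.92), and 1 member of Control 2 held 88 of its 250 UMIs there. The groups did not overlap. In endothelial barcodes the log2 fold change of Gkn3 was -1.16 ± 0.26 and that of Hsph1 -1.42 ± 0.16, and only the second was called there (edgeR adjusted p = 0.021).

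The other genes with the smallest p that were lower in Diabetic included Ppp1r12b, Ltbp1 and Rbm24. Ppp1r12b, a targeting subunit of myosin phosphatase, had 112 and 116 CPM in Diabetic members and 179 and 198 CPM in Control members. Ltbp1, which tethers latent TGF-beta to the matrix, had 62.2 and 65.7 against 126 and 118 CPM. Rbm24 had 38.7 and 58.7 against 94.3 and 116 CPM. For each of the 3 the groups did not overlap, and the log2 fold changes were -0.77 ± 0.17, -0.98 ± 0.19 and -1.15 ± 0.27, with edgeR adjusted p of 1.0 each. In all pericyte barcodes the log2 fold changes were 0.13 ± 0.29 for Ppp1r12b, -0.18 ± 0.28 for Ltbp1 and -0.80 ± 0.52 for Rbm24. The tests of the difference between the classes gave an edgeR adjusted p of 1.0 for each. In endothelial barcodes the log2 fold changes were 0.11 ± 0.19 for Ppp1r12b and 2.08 ± 0.51 for Ltbp1, and Rbm24 was not tested there. Dnaja1, a co-chaperone, had 140.4 and 168 against 252 and 376 CPM, Cacybp, which binds calcyclin, 88.9 and 84.5 against 158 and 134 CPM, and P4ha1, a collagen prolyl hydroxylase, 50.2 and 41.5 against 79.2 and 103 CPM. The groups of these 3 did not overlap either. The mitochondrial ribosomal RNA mt-Rnr1 had 2503 and 4356 CPM in Diabetic and 7137 and 8636 CPM in Control members, beside median mitochondrial shares of 2.48% and 3.42% against 5.16% and 5.18% of a member's UMIs. The part of the mitochondrial share in this was not tested.

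The genes with the smallest p that were higher in Diabetic members included early-response and endothelial genes. Fos, an early-response transcription factor, had 2350.1 and 2829 CPM in Diabetic and 1442 and 1435 CPM in Control members. Dusp1, a phosphatase that ends MAP kinase signalling, had 1161 and 1239 against 692 and 632 CPM, and Gadd45g, a stress-induced gene, 182 and 191 against 91.99 and 82.6 CPM. The Diabetic libraries were above the Control libraries for all 3, with log2 fold changes of 0.80 ± 0.15, 0.81 ± 0.15 and 1.04 ± 0.17. Ly6a, a surface protein of endothelial and progenitor cells, had 1844 and 1691 against 869.8 and 1043 CPM, and Ucp2, a mitochondrial carrier, 229.9 and 237 against 104 and 128 CPM. S100a6, a calcium-binding protein, had 264 and 191 against 88.5 and 97.1 CPM. None of the groups overlapped, and 1 member held 79 of the 416 UMIs of S100a6 in Diabetic 1. Zfyve9, an adaptor for TGF-beta receptors, had 75.6 and 79.0 against 36.1 and 37.2 CPM, and Gpcpd1, a phosphodiesterase, 433 and 466 against 247 and 275 CPM. Ly6a was nearly absent from members with low endothelial RNA, with 6 and 0 UMIs in Diabetic and 2 and 0 in Control libraries.

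**Figure D4:**
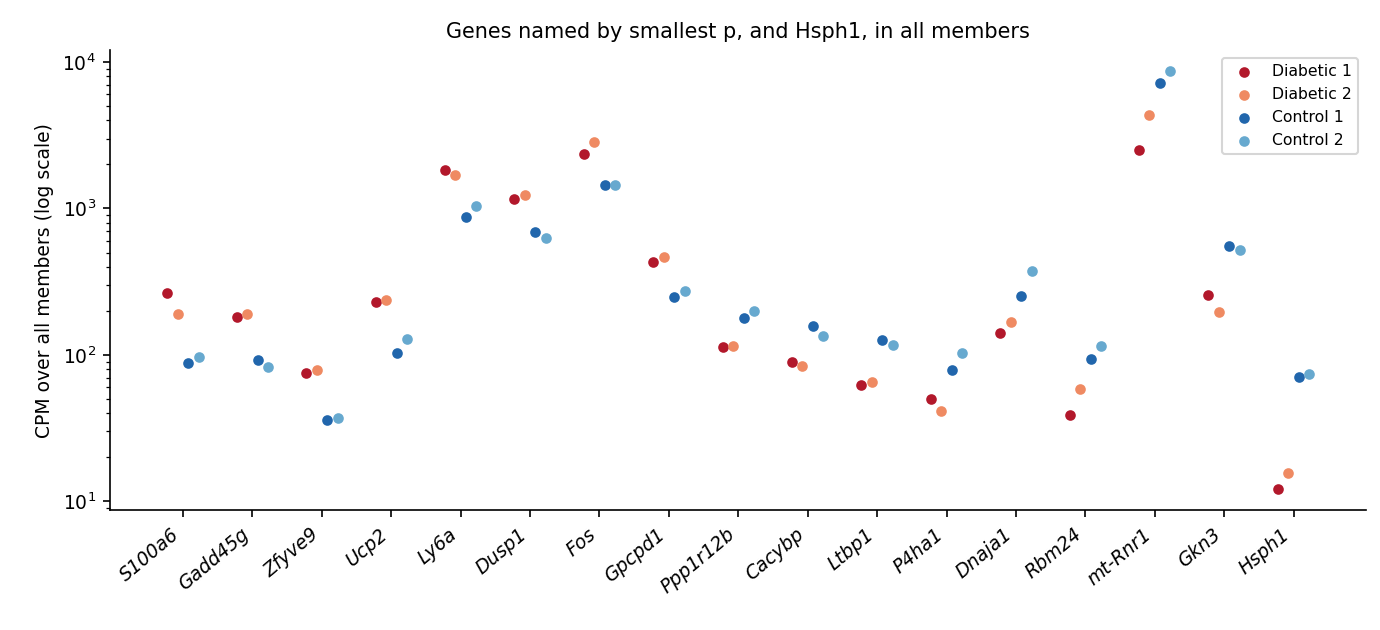
CPM over all members of each library on a log axis, for the 8 genes of each direction with the smallest p and Hsph1, ordered by log2 fold change of Diabetic over Control, Diabetic points left. The groups are apart for the 16 genes because the naming rule asked for it, and edgeR called none.

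Lists of genes were read by how often the 2 Diabetic libraries both lay above or both below the 2 Control libraries. Over all genes tested in all members, 21.2% lay above and 12.5% below in this sense, and the median log2 fold change was -0.002. The lists were chosen with results of these data known, and no gene of any list was called by edgeR in all members.

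The contractile list, without the rule genes, had 25 of its 27 genes tested, of which 10 lay below, 2 lay above and 21 had a negative log2 fold change, with a median of -0.31. Filip1l, a filamin-interacting protein and the smallest p of the list, had 346 and 359 CPM in Diabetic, against 458 and 591 CPM in Control members. Flna, filamin A, had 314 and 388 against 441 and 566 CPM, Sorbs2, an adaptor at actin attachments, 296 and 326 against 398 and 555 CPM, and Tpm2 492 and 566 against 653 and 700.03 CPM. In each the Diabetic libraries were the lower ones. Lmod1 had 89.6 and 109 against 135 and 126 CPM and Cacna1c 33.7 and 28.9 against 47.7 and 51.6 CPM, also without overlap. Myl9 lay nearly level, at 1146 and 1207 against 1212 and 1243 CPM, and Mylk, Des, Pln and Myocd overlapped. The rule genes themselves are given without a test, since they chose the members. Acta2 had 1376 and 1563 against 1938 and 1951 CPM, Tagln 772 and 789 against 1365 and 1272 CPM, and Myh11 652 and 831 against 865 and 1063 CPM.

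The share of the rule genes differed between the groups, as a description, since they chose the members. They summed to 2800.4 and 3183 CPM in Diabetic members and 4168 and 4287 CPM in Control members. The 4 endothelial genes of the rule summed to 6733 and 7140.4 CPM in Diabetic, against 5174 and 6814 CPM in Control members. The 27 contractile genes outside the rule summed to 10837 and 11996 CPM in Diabetic, against 12327 and 12685 CPM in Control members. In the members with more endothelial RNA alone they overlapped, at 10293 and 11595 against 11453 and 10622 CPM, and they overlapped in those with low endothelial RNA. The parts of RNA from other cells and of member depth under a fixed UMI threshold in the contractile values were not tested. When only members with at least 20 muscle UMIs were summed, 76 and 55 in Diabetic and 56 and 19 in Control libraries, 17 of 24 contractile genes lay below and 2 above, with a median of -0.49. The background there was 14.6% below and 22.5% above among 8236 genes. In the same sums 10 of 14 endothelial genes lay above and 0 below, 4 of 8 Müller glia genes lay above and 0 below, and all 13 rod genes had a positive log2 fold change with a median of 0.81 and overlapping groups.

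Some genes through which nitric oxide relaxes the muscle cell were also lower. Pde5a, which breaks down cyclic GMP, had 194 and 277 CPM in Diabetic and 307 and 320.1 CPM in Control members. Prkg1, the cyclic GMP-dependent kinase, had 72.4 and 84.5 against 89.7 and 109 CPM. Both lay below without overlap, while Gucy1a1 overlapped at 189 and 214 against 217 and 198 CPM. Of 23 ion channel and calcium handling genes 7 lay below and 1 above. Cacna2d1, a calcium channel subunit, had 52.7 and 52.4 against 72.2 and 92.9 CPM. Abcc9 had 179.8 and 188 against 200.3 and 242 CPM, whereas Kcnj8 overlapped at 94.6 and 75.1 against 66.4 and 105 CPM. Of 27 vasoactive receptors 14 were tested, and 5 lay below and 0 above, among them Npr3, the clearance receptor for natriuretic peptides, with 8.26 and 9.39 against 23.3 and 26.8 CPM. Npr3 had 0 UMIs in members with low endothelial RNA of every library. Ednra overlapped at 102 and 138 against 153 and 126 CPM. The receptor list did not keep this direction in members with low endothelial RNA. There 3 of 9 lay above, Ednra among them, and 1 below, beside 19.1% above and 14.3% below over all genes.

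Transcription factors and matrix genes were less uniform. Of 19 smooth muscle transcription factors 6 lay below and 3 above, and Foxc2, a forkhead factor, had 10.8 and 12.5 CPM in Diabetic, against 29.1 and 22.7 CPM in Control members. Of 13 Notch genes 1 lay below and 1 above, and Hes1, a Notch target, had 236 and 315 against 353 and 379.96 CPM. Notch3 itself overlapped at 507 and 631 against 533 and 566 CPM. Of 48 matrix genes 31 were tested, and 6 lay below and 5 above, with Aspn, a small proteoglycan, at 176 and 233 against 282 and 339 CPM and Eln at 102 and 106 against 86.2 and 130.1 CPM. Of 9 genes of phenotypic modulation 3 lay above and 1 below. Of 15 pericyte genes 5 lay below and 2 above. In members with low endothelial RNA the pericyte list ran the other way, with 5 of 12 above and 1 below, Kcnj8, Abcc9 and Vtn among those above, and 9 of 24 matrix genes lay above and 2 below. The values of Kcnj8 and Abcc9 there rested on few barcodes, since only 12 of the 47 members held any UMI of either. In Diabetic 1, 1 member with 7 muscle UMIs held 12 and another held 8, and in Diabetic 2, 1 member held 4. Over all members Rgs5 overlapped, at 7142 and 8495 against 8059 and 7832 CPM.

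Early-response genes were higher in Diabetic when all members were summed. Of 25 listed 21 were tested, and 16 lay above and 0 below, with a median log2 fold change of 0.44. In members with at least 20 muscle UMIs 7 of 20 lay above and 0 below. Jun, a partner of Fos, had 1622 and 1834 CPM in Diabetic and 1227 and 1235 CPM in Control members, and Egr1, an early-response zinc finger factor, 407 and 602 against 201 and 339 CPM. Both stood apart. In the members with low endothelial RNA the order was the other way round. There 0 of 17 lay above and 5 below, with a median of -0.38, and Jun had 463 and 347 CPM in Diabetic, against 873 and 589 CPM in Control libraries. Fos overlapped, at 1697 and 1041 against 2569 and 1098 CPM. These sums rested on 7 to 18 members each. In all pericyte barcodes 15 of 24 lay above and 0 below, beside 17.8% above and 9.25% below over all genes there. In endothelial barcodes 18 of 21 lay above and 0 below, beside 24.4% and 17% over all genes.

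Heat shock genes lay below more often than the background in each class summed. Of 22 tested in all members 13 lay below and 0 above, with a median log2 fold change of -0.43. Hsp90ab1, a cytosolic Hsp90, had 1369 and 1379 CPM in Diabetic and 1928 and 1828 CPM in Control members, and Hspa8, the constitutive Hsp70, 464 and 602 against 628 and 954 CPM. Of 16 with enough UMIs in members with low endothelial RNA, 7 lay below and 3 above. In all pericyte barcodes 11 of 22 lay below and 2 above, and in endothelial barcodes 12 of 20 lay below and 2 above, with Hsph1 called. The early-response and heat shock lists thus stood apart in the same directions in pericyte and endothelial barcodes of these libraries as in all members. These classes share libraries, and they also share endothelial RNA.

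Interferon-response genes lay above more often than the background in the sum over all members. Of 36 listed 34 were tested in all members, and 19 lay above and 2 below, with a median log2 fold change of 0.24. Ifi44, which is induced by interferon, had 43.2 and 34.4 CPM in Diabetic, against 13.97 and 20.6 CPM in Control members, and Isg15, a ubiquitin-like modifier, 204 and 167 against 90.8 and 124 CPM. Both Diabetic libraries were above both Control libraries for these genes. In members with at least 20 muscle UMIs 19 of 34 lay above and 2 below, and in all pericyte barcodes 4 of 35 lay above and 2 below, beside the 17.8% and 9.25% given above. In endothelial barcodes 10 of 34 lay above and 5 below, near the 24.4% and 17% over all genes. In members with low endothelial RNA 1 of 7 lay above and 1 below. The log2 fold change of Ifi44 was 1.17 ± 0.33 in members and -0.26 ± 0.34 in all pericyte barcodes (edgeR adjusted p of the difference = 0.86). Ifi44 had 0 UMIs in the members with low endothelial RNA of all 4 libraries. Of 13 MHC class I genes 2 lay above and 0 below, and Tap1, the peptide transporter, had 33.03 and 21.9 against 16.3 and 14.5 CPM.

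Acute-phase and NF-kB genes were mixed, with 10 above and 5 below of 25 tested among 37 listed. Lrg1, a glycoprotein of inflamed vessels, had 29.9 and 63.4 CPM in Diabetic, against 1.16 and 4.13 CPM in Control members, from 47 and 81 against 1 and 2 UMIs (log2 fold change 4.24 ± 0.74, edgeR adjusted p = 1.0). A single member held 63 of the 81 UMIs in Diabetic 2. Among members with low endothelial RNA, 1 member of Diabetic 1 held 6 Lrg1 UMIs, and every other library had 0. The log2 fold change of Lrg1 was 7.12 ± 1.13 in all pericyte barcodes and 6.56 ± 0.40 in endothelial barcodes. Only the second was called (edgeR adjusted p = 4.18e-04). Socs3, an inhibitor of cytokine signalling, had 142 and 217 against 61.7 and 92.9 CPM, and Vcam1 241 and 289 against 174 and 184 CPM. In members with at least 20 muscle UMIs the list was balanced the other way, with 4 of 18 above and 6 below. With low endothelial RNA 3 of 10 lay above and 0 below. All pericyte barcodes had 18 of 31 above and 0 below, and endothelial barcodes 19 of 26 above and 2 below.

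Of the remaining lists, 12 of 24 oxidative stress genes lay above and 0 below, and Gsta4, a glutathione transferase, had 53.4 and 57.9 CPM in Diabetic, against 29.1 and 24.8 CPM in Control members. Of 22 TGF-beta, BMP and YAP genes 12 lay above and 3 below, and of 18 growth factor genes 7 lay above and 3 below, with Igfbp3, a binding protein of insulin-like growth factors, at 236 and 199 against 128 and 173 CPM. In members with low endothelial RNA 0 of 16 genes of the TGF-beta list lay above and 3 below, and 1 of 14 oxidative stress genes lay above and 2 below. Of 13 clock genes 6 lay above and 1 below, and Dbp, a clock output factor, had 87.7 and 89.2 against 50.1 and 49.6 CPM. Of 17 glucose and fatty acid response genes 6 lay above and 4 below. Txnip, a glucose-induced inhibitor of thioredoxin, overlapped at 232 and 257 against 139 and 235 CPM. Of 23 glycolysis and hypoxia genes 4 lay above and 5 below. Of 12 mitochondrially encoded genes 5 lay below and 0 above, with a median of -0.58, and mt-Cytb, cytochrome b, had 4983 and 5806 against 7593 and 7473 CPM.

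**Figure D5:**
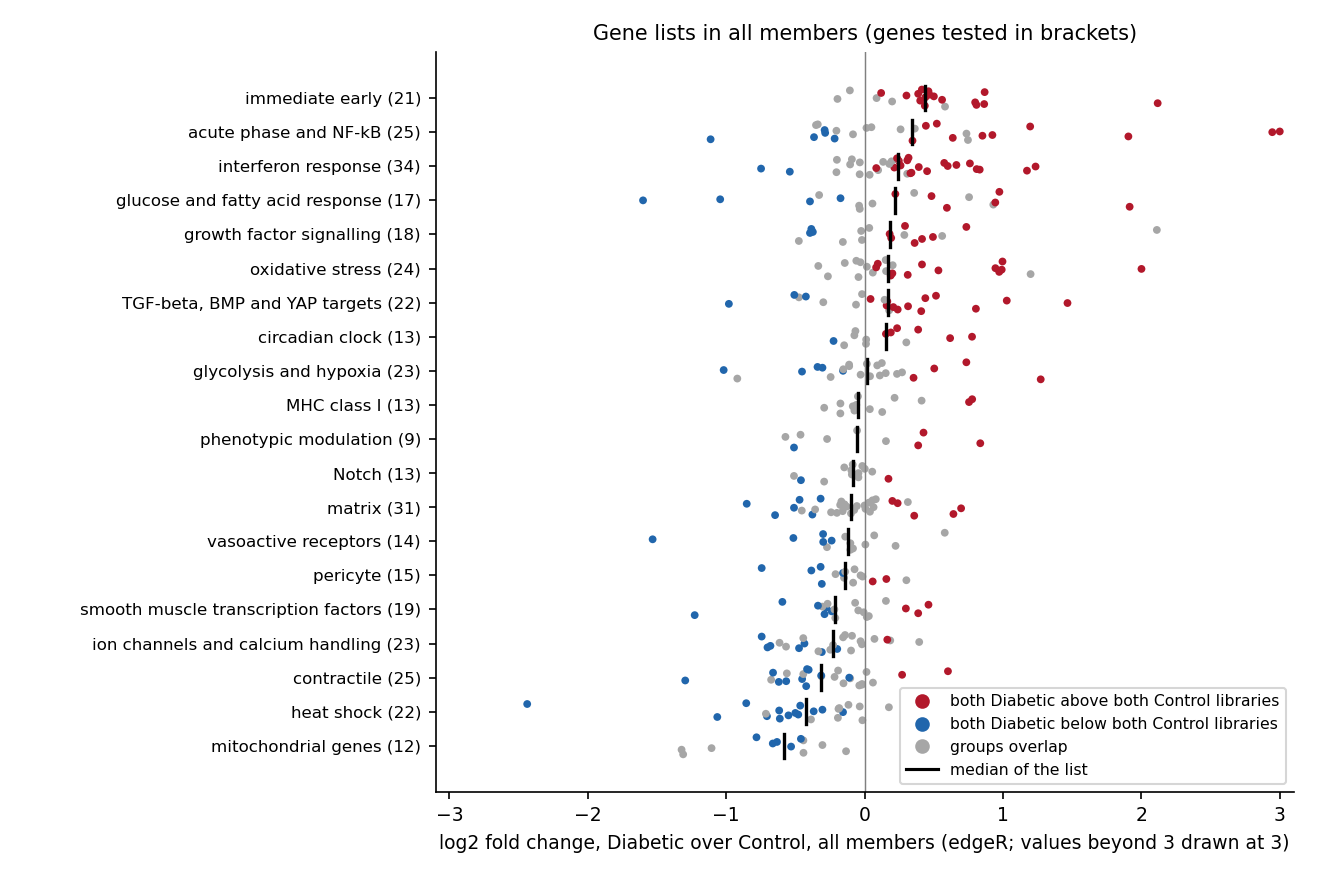
Log2 fold change of Diabetic over Control in all members for the tested genes of 20 lists, one point per gene and a bar at each list's median, with red points where both Diabetic libraries lie above both Control libraries and blue points where both lie below. Early-response genes are at the top with a median of 0.44, and contractile, heat shock and mitochondrial genes at the bottom with medians of -0.31, -0.43 and -0.58.

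The members with low endothelial RNA were not tested between groups, because Diabetic 2 and Control 2 held 7 of them each, under the minimum of 10 set for that test. Among 3622 genes with at least 10 UMIs over these members, 19.1% lay above and 14.3% below. Of 24 contractile genes 6 lay below and 0 above, with a median of -0.30. Filip1l had 1064 and 964 CPM in Diabetic, against 1070.3 and 2222 CPM in Control libraries, and Sorbs2 339 and 347 against 510.4 and 1151 CPM. The spread between the Control libraries exceeded the gap between the groups for both. Ppp1r12b had 339 and 309 against 461 and 616 CPM, below without overlap as in the sum over all members. Ltbp1 overlapped here, at 201 and 386 against 247 and 402 CPM, and so did Rbm24, at 92.6 and 347 against 313 and 402 CPM.

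The last comparison asked whether the Diabetic and Control difference itself differed between members and pericytes with low endothelial RNA. The minimum of 10 members was not set for this comparison, whose sums held 7 to 18 members. None of 1792 genes was called (edgeR class by group term with library as a block, 0 higher and 0 lower; 31 genes or 1.73% at an unadjusted p under 0.05; DESeq2 0). The 5 genes with the smallest p were Apoe, Hk2, Eif5, Jun and Slc16a1, each with an edgeR adjusted p of 1. Hk2, hexokinase, had 10 and 1 UMIs in Diabetic and 0 and 0 in Control members, and Slc16a1 9 and 2 against 0 and 0. Eif5, a translation initiation factor, had 16 and 6 against 3 and 2 UMIs. The value for Apoe rested on 1 member of Control 1, as given above. Jun had 30 and 9 UMIs in Diabetic members and 53 and 22 in Control members, while in pericytes it had 435 and 944 CPM in Diabetic, against 183 and 354 CPM in Control libraries. Over all members and all pericyte barcodes, whatever their endothelial RNA, edgeR called 5 of 12781 genes, 0.0391%, all with a lower log2 fold change in members. One of them was Myh11, which chose both classes.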

How the data were processed

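Single-cell RNA was measured in 4 libraries. The deposited files hold raw UMI counts, not normalized, for 55357 genes in called barcodes. Reads had been turned into these counts by the authors using Cell Ranger 7.0.0, STAR 2.7.10b and the mm10 build, per the submitters' processing notes. The members, gene lists and comparisons were chosen with earlier results of these data known. UMIs were summed per library and class. Sums were tested with edgeR 4.0.16 (TMM, filterByExpr, quasi-likelihood F test, two-sided, Benjamini-Hochberg adjustment) in R 4.3.3, with DESeq2 1.42.0 as an alternative. The threshold for a call was an adjusted p under 0.05. Both fits were tested on simulated counts with 200 changed genes and 1 common dispersion each. At a 2-fold change the fit over all members recovered 31 of these, and the fit of the difference to pericytes 0. At a 4-fold change they recovered 173 and 22. A call of 0 genes therefore does not show that changes of this size were absent. CPM values carry no pseudocount. Errors of log2 fold changes are SE, with 2 libraries per group.

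Named genes followed a rule: since under 16 genes were called, the 8 of each direction with the smallest p among those with a mean of at least 50 CPM, no overlap between groups, and no place among rule genes or lists of other cells; the smallest p of each list; 25 preset genes; and 5 for the difference to pericytes. Others that the text names were chosen after their values were seen. Shares were compared by an exact permutation test. Doublets were called with Scrublet in scanpy 1.11.5 and removed only in an alternative. Its own threshold marked 0% and 0.426% of barcodes in Diabetic 1 and 2, so there the expected rate of 0.8% per 1000 barcodes was used. Alternatives covered tool, normalization, filters, thresholds, doublets, RNA of other cells and single libraries. Intervals cover counting error only. Some results of the named-gene rule and 1 gene list are not reported here.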

Additional observations from a re-analysis of the deposited data

Results flagged for a closer look

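In a single fit over all members and all pericyte barcodes, the difference between Diabetic and Control itself passed the threshold between the 2 classes for 4 genes that did not choose the cells, of which Dcn and C3 rest on few cells (edgeR class by group term, adjusted p = 0.046 each). Lpl, lipoprotein lipase, had 28.6 and 30.5 CPM in Diabetic members, against 50.1 and 70.2 CPM in Control members, and 10.2 and 14.3 CPM in Diabetic pericyte barcodes, against 3.24 and 4.80 CPM in Control ones. The groups stood apart in opposite directions, and the log2 fold changes differed by -2.61 ± 0.38. Vcam1 had 241 and 289 CPM in Diabetic and 174 and 184 CPM in Control members, and 116 and 139 against 15.99 and 35.6 CPM in pericyte barcodes. It was higher in Diabetic in both classes, with a smaller log2 fold change in members by -1.88 ± 0.29. Members with low endothelial RNA held 3 and 0 Vcam1 UMIs in Diabetic, and 3 and 0 in Control libraries. Of the 2745 pericyte barcodes in this fit, 309 had low endothelial RNA. In endothelial barcodes the log2 fold change was 7.24 ± 1.25 for Lpl and 1.37 ± 0.20 for Vcam1, neither called by edgeR. The part of endothelial RNA in the differences for Lpl and Vcam1 was not tested.

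Dcn, decorin, a fibroblast marker, differed by -4.73 ± 0.72, with 5 and 2 UMIs in Diabetic and 15 and 2 in Control members, and 182 and 180 against 42 and 9 in pericyte barcodes. A single member held 12 of the 15 UMIs in Control 1. C3, a complement component, had a fitted difference of -13.41, which is no fold or bound because the Diabetic members had no UMI. It had 0 and 0 UMIs in Diabetic and 32 and 0 in Control members, and 18 and 36 against 3 and 0 in pericyte barcodes. All 32 UMIs came from 1 member of Control 1. No other member held any.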

How the results depend on the processing

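In all members, where edgeR called 0 genes higher and 0 lower, counts moved under 4 planned settings. DESeq2 called 0 higher and 2 lower, no filter on low counts 44 and 26, and leaving out members rich in neural and glial RNA 11 and 15. With the replicate number as a block, 45 genes were called higher and 40 lower, among them all 16 named by smallest p. Same-numbered libraries deviated together (r = 0.41 over 10113 genes), but with 2 pairs this is a hint from the data, and the labels tie no pairs. Leaving out one library at a time gave 0 to 25 higher and 0 to 30 lower: 25 and 30 without Control 1, 8 and 4 without Control 2, 3 and 2 without Diabetic 2, and 0 and 0 without Diabetic 1. Such a fit has an arm of 1 library, which is assumed to vary like the libraries of the other group. RLE factors, thresholds of 10 and 20 muscle UMIs, a 10% mitochondrial limit, removal of doublets, and 3 settings added after seeing the data (without members led by pericyte genes, without the neutrophil-rich member, and members with more endothelial RNA alone) gave 0 and 0. For the difference between members and pericytes, where 0 were called, all members and all pericyte barcodes gave 5 lower, no filter 2 lower, and leaving out one library 0 to 1 higher and 1 to 7 lower (3, 7, 3 and 1 without Control 1, Control 2, Diabetic 1 and Diabetic 2). The cause was not tested. The share of all members kept its sign under each setting, and its difference fell to 0.052 points when thinned. For 31 genes followed, 494 values under these settings held no reversal, 429 stayed on their side of the threshold and 65 passed it. These genes were chosen by their smallest p in the same libraries, so the lack of reversals is no independent check. Alternatives for Diabetic against Control within the members with low endothelial RNA were not run, since that test itself was not run.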
